A study of Homo sapiens with 18 samples.

Results

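Promoter CpGs that were methylated in 3 unrelated cancer cell lines are described here. They are the autosomal CpGs lying within 1 kb of the 5' end of a protein-coding gene (GENCODE 44 on GRCh37) that were covered by at least 20 reads and at least 80% methylated in each of 3 libraries of reduced representation bisulfite sequencing (RRBS). Of 292749 promoter CpGs with that coverage in all 3 libraries, 13442 (4.59%) met the rule, whereas 169070 (57.8%) were at most 20% methylated in all 3 and 110237 (37.7%) belonged to neither class. Of 11628 genes with 5 or more measured promoter CpGs, 877 (7.54%) had 5 or more methylated in all 3 lines. In the whole series, 953749 autosomal CpGs were measured in all 3 RRBS libraries. The CpGs and genes were chosen by their RRBS values, so their methylation is given as a description, and tests were made only on the capture libraries, which the rule did not use.

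The lines were HCT15, from a colorectal carcinoma, and DU145 and PC3, both from prostate cancers. All are established, untreated lines, each represented by the DNA of a single culture. Each line was profiled once by RRBS and once with each of 5 kits that capture fragments with a methyl-CpG-binding domain (MBD), which gave 15 MBD-seq libraries. The kits were MethylMagnet, MethylCollector, MethylCollector Ultra, MethylCap and MethylMiner. With a single library per kit and line, the spread of a kit is that over its 3 lines (n = 3), and no technical replicate was made.

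In vertebrate DNA most CpGs carry a methyl group on the cytosine, whereas CpG islands at promoters mostly do not. Dense methylation of a promoter island goes with a silent gene and is known from the inactive X chromosome, imprinted genes, genes used only in the germline and many genes of tumour cells. RRBS reads the methylated share of single CpGs in CpG-rich parts of the genome, and MBD capture pulls down fragments according to the methylated CpGs they hold.

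The libraries held 10040 to 7344098 fragments, and 4 of the 5 kits had their lowest number in DU145. The line named on each library was checked over CpGs methylated in only 1 line. In 12 of 15 libraries the depth was highest over the CpGs of its own line. The exceptions were the 3 libraries labelled MethylMiner. In the one of HCT15 the depth was 1.04, 1.05 and 1.18 over the CpGs methylated only in HCT15, DU145 and PC3. MethylMiner enrichment at methylated promoter CpGs was 1.06 ± 0.14 (SD, n = 3) times that at unmethylated ones. With so small a contrast the check cannot decide the line of these libraries. The tests that include them are also given without them. The RRBS library of PC3 held 0 CpGs of chromosome 22 and ended at position 42485481 of chromosome 21, and no methylated promoter CpG could be found there.

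Some stretches upstream of the gene show what these promoter CpGs look like. They are 5 stretches of at most 300 bases, upstream of the 5' end and outside annotated exons, chosen for their number of methylated CpGs among the genes with the most of them. Capitals mark the CpGs that were at least 80% methylated in all 3 lines. A CpG in lower case was not covered by 20 reads in all 3 libraries or was below 80% in at least 1. Sequences are from GRCh37 and run 5' to 3' on the strand of the gene.
In TPTE, which encodes a testis phosphatase with transmembrane segments, 20 of 27 CpGs were capitalised in chr21:10990975-10991116, minus strand, 212 to 71 bp before the 5' end.
TPTE: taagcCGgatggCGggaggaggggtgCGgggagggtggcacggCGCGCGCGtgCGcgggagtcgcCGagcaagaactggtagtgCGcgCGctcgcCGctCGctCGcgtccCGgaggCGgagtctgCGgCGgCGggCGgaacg
In BCL2L11, the gene of the pro-apoptotic protein BIM, 19 of 34 were capitalised in chr2:111876693-111876948, plus strand. None of its CpGs in lower case was covered by 20 reads in all 3 libraries.
BCL2L11: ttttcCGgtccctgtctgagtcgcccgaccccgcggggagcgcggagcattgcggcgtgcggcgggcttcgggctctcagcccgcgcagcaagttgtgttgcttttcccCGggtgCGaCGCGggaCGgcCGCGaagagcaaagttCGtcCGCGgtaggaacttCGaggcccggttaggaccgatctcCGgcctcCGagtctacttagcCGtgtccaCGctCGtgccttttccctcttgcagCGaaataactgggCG
All 16 CpGs were capitalised in chr2:11621919-11622093, plus strand, before GREB1, an oestrogen-regulated gene.
GREB1: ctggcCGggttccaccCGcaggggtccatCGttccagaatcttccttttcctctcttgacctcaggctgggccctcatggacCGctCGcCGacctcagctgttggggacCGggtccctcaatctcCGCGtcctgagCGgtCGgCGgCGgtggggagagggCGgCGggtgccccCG
Before CHAD, the gene of the cartilage protein chondroadherin, 13 of 26 were capitalised in chr17:48546475-48546774, minus strand.
CHAD: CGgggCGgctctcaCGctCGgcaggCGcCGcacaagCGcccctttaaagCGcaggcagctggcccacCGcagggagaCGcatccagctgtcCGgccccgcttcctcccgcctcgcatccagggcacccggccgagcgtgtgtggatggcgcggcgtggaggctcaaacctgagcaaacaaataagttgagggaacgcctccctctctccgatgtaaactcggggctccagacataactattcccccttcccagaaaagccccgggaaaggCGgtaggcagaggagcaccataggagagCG
Before PROB1, 13 of 15 were capitalised in chr5:138730821-138730996, minus strand.
PROB1: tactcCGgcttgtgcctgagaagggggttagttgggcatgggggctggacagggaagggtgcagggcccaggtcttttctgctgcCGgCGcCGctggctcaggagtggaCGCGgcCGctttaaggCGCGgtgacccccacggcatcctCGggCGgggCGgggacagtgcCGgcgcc

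In these stretches the mean methylation of the capitalised CpGs was above 95% in every line. In TPTE it was 98.01%, 99.3% and 95.7% in HCT15, DU145 and PC3, while GREB1 had 98.7%, 98.6% and 98.2%. In TPTE the capitalised CpGs include the run CGCGCGCG. The stretch also holds 7 CpGs in lower case. The canonical transcript of a gene does not always start at the gene's outermost annotated 5' end. It starts 1536 bp from that end in BCL2L11 and 51704 bp from it in GREB1, so their stretches lie before other transcripts than the canonical one.

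Across the 13442 CpGs the median methylation was 96.97% in HCT15, 97.96% in DU145 and 97.14% in PC3. The mean was 95.8% ± 4.9 (SD over CpGs) in HCT15, 96.0% ± 5.2 in DU145 and 95.4% ± 5.4 in PC3, at a median coverage of 35, 66 and 46 reads. The lines differed little, with a median range of 5.26 percentage points over the 3 lines at a CpG. In all 3 lines 68.1% of the CpGs were at least 90% methylated and 11.0% at least 98%. Near the threshold, 1022 CpGs had a lowest methylation of 80% to under 82% and 922 just missed it with 78% to under 80%. The same holds for genes, of which 187 had exactly 5 methylated CpGs and 275 exactly 4.

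The share of measured CpGs that were methylated was lowest at the 5' end, although in number the methylated CpGs were spread over the window, with 950 in the first 100 bp downstream and 585 in the farthest upstream bin. Among measured CpGs, 17.0% were methylated in all 3 lines in the bin from 1000 to 900 bp upstream. The share fell to 2.21% in the last 100 bp before the 5' end, and was 7.38% in the bin from 900 to 1000 bp downstream. CpGs unmethylated in all 3 lines had the opposite profile, from 35.6% in the farthest upstream bin to 67.8% just before the 5' end. The measured CpGs are most numerous near the 5' end, with 34505 in the first 100 bp downstream against 3434 in the farthest upstream bin. In these bins a CpG lying in the windows of several genes was counted once for each gene.

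**Figure D1:**
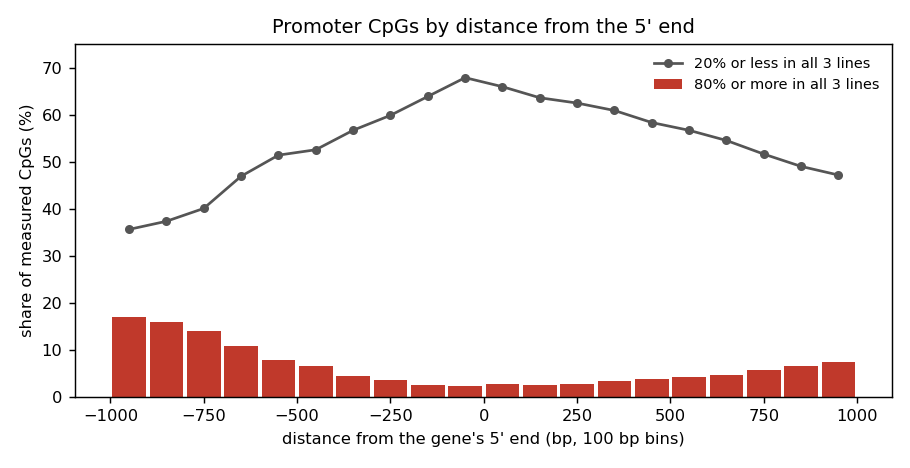
Share of measured promoter CpGs (%, vertical axis) by distance from the 5' end of the gene in bins of 100 bp (horizontal axis). Red bars are CpGs at least 80% methylated in all 3 lines and grey points CpGs at most 20% methylated in all 3. A CpG in the windows of several genes was counted once for each gene. The bars are lowest, at 2.21%, where the grey points are highest, at 67.8%.

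By annotation, 24.7% of the methylated CpGs lay in coding exons, against 15.4% of all measured promoter CpGs. Untranslated regions held 15.4% of them against 29.3% of those measured, introns 25.6% against 27.7%, and sequence outside protein-coding genes 32.4% against 24.9%. Put differently, 7.37% of measured coding CpGs met the rule and 2.42% of those in untranslated regions. Within 100 bp of a methylated CpG, itself included, a median of 14 CpGs were counted (lower and upper quartile 9 and 21). The surroundings of unmethylated promoter CpGs were denser, with a median of 24 (19 and 29), and those of CpGs methylated in all 3 lines outside promoters were sparser, with 9 (6 and 12).

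The 877 genes together held 8509 of the CpGs (63.3%), and the number per gene ran from 5 to 69 with a median of 8. In 302 genes there were 10 or more, in 78 genes 20 or more and in 27 genes 30 or more. The genes differed in how much of the window was methylated. In 132 genes every measured promoter CpG met the rule, 44 of them with 10 or more measured, and in 258 genes at least 80% did. In 399 genes fewer than 50% did. Windows with a larger share had fewer CpGs, with a median of 74 in the genes at 80% or more and of 130 in those under 50%. Pearson's r across the 877 genes, which share libraries and base composition, was -0.58. The choice of genes fixes part of this relation in advance. A gene with few measured CpGs has 5 or more methylated only if its share is large.

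Methylation at the 5' end itself was less common. Within 200 bp of it, 185 genes had 5 or more methylated CpGs and 507 had none. Of these 507 genes, 256 had no measured CpG there and 251 had at least 1. In 116 genes 5 or more CpGs within 200 bp were unmethylated in all 3 lines. In 180 genes the whole window held 5 or more CpGs of each class, so that a border lay within it. The canonical transcript started within 1 kb of the gene's 5' end in 711 of the 877 genes (81.1%), compared with 88.1% of all genes with 5 or more measured promoter CpGs.

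TLX3, a homeobox transcription factor of developing neurons, had the most methylated promoter CpGs, 69 of 78 measured. Their mean methylation was 97.1% ± 3.4 (SD over CpGs) in HCT15, 98.2% ± 2.2 in DU145 and 96.6% ± 3.7 in PC3. CHAD followed with 51 of 62 and CLIC6, of the chloride intracellular channel family, with 50 of 67. TSSK6, a kinase of the testis, had 49 of 68, and the doublecortin family gene DCDC2C had 46 of 64. CIDEB, a lipid droplet protein, and LTB4R, a leukotriene receptor, lie on opposite strands around the same CpGs and share 47 of 49. CDX1, a homeobox gene of the intestine, had 43 of 80 and GREB1 42 of 75.

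ALOX12, the arachidonate 12-lipoxygenase, had all 44 of its measured CpGs methylated. Their mean was 97.5% ± 2.8 (SD over CpGs) in HCT15, 98.2% ± 2.7 in DU145 and 98.1% ± 2.7 in PC3. NSD1, a histone H3 lysine methyltransferase, had 44 of 45 around an end that lies 1943 bp from the start of its canonical transcript. PROB1 had 42 of 44 and AP001362.1, a gene with no other name in the annotation, 41 of 43. Other genes with all measured CpGs methylated were MYO15B (38), SAP25 (35), BCL2L11 (32), the heat shock factor gene HSF5 (29) and SHARPIN (26), a component of the linear ubiquitin ligase. In CIDEB and SHARPIN the canonical start was 3453 and 4351 bp away.

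Within 200 bp of the 5' end BCL2L11 had the most methylated CpGs, with all 29 measured. GREB1 followed with 26 of 31, ALOX12 with 23 of 23, TPTE and the betaine-homocysteine methyltransferase gene BHMT2 with 22 each, TDRD9 with 21, and CHAD, FAM228A and SPAG6, a gene of the sperm flagellum, with 19 each. TLX3, with the most methylated CpGs in the window, had a single measured CpG this close. In GREB1 the remaining measured CpGs were not methylated alike, since the mean over all 75 was 93.1% in HCT15, 65.99% in DU145 and 68.6% in PC3.

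**Figure D2:**
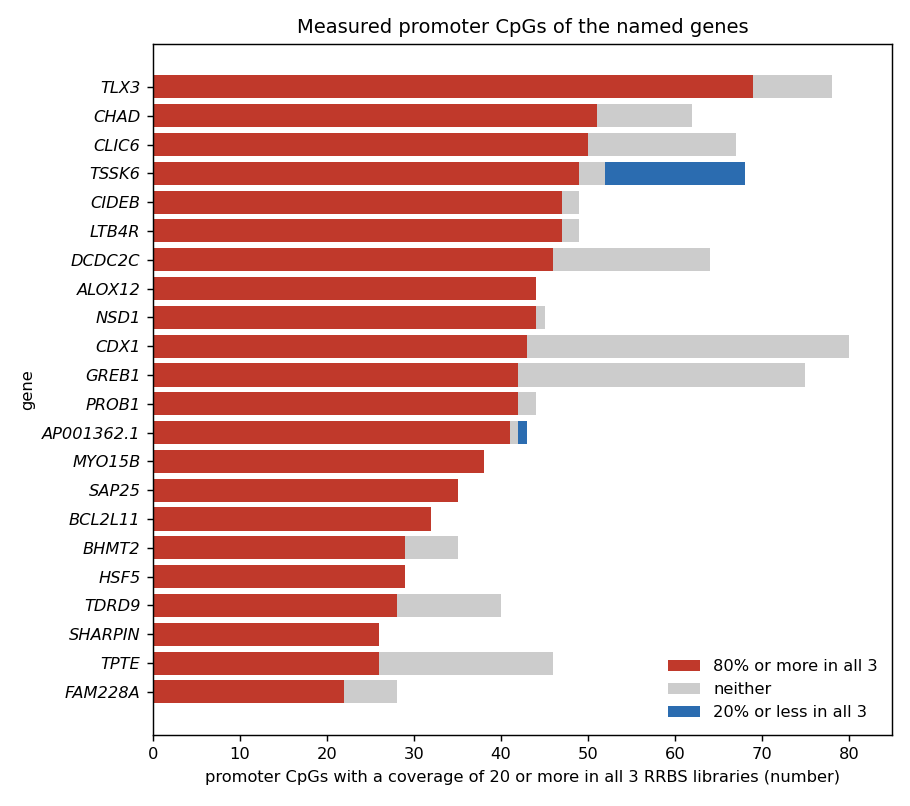
Number of measured promoter CpGs (horizontal axis) in each gene named for its number of methylated CpGs (vertical axis). Red marks CpGs at least 80% methylated in all 3 lines, blue CpGs at most 20% methylated in all 3, and grey neither. TLX3 has the longest red bar, with 69, and TSSK6 has a blue part, with 16.

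Gene groups were compared with the 7.54% found over all genes, as counts without a test. Of 29 measured germline genes, 15 (51.7%) had 5 or more methylated CpGs. They include TDRD6 (34 of 41) and TDRD9 (28 of 40), which encode Tudor proteins of the piRNA pathway, and SYCP3 (20 of 20), a part of the synaptonemal complex. Of 20 measured clustered protocadherins, which are neuronal adhesion molecules, 8 did, among them PCDHGA12 (19 of 19), PCDHGA3 (14 of 18) and PCDHGA11 (13 of 21). Homeobox genes, which pattern the embryo, had 37 of 126 (29.4%), led by TLX3, CDX1 and NKX1-1 (31 of 47). A count of 5 is easier to reach where many CpGs were measured. The median share of a gene's measured CpGs that were methylated was 55.6% in germline genes, 34.2% in protocadherins and 4.17% in homeobox genes. Over all genes it was 0%.

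Of 17 measured keratins, proteins of epithelial filaments, 4 (23.5%) did, including KRT5 with 10 of 20 and KRT75 with 10 of 13. In the immune cell list 4 of 16 did, among them CD8A (7 of 15), the interleukin-2 receptor gene IL2RA (6 of 6) and VAV1 (6 of 8). The CD8A CpGs lay at positions -877 to -779 from an end that is 17483 bp from the canonical start. The list of imprinted genes had 4 of 27 (14.8%), with NNAT at 18 of 18 and FAM50B at 9 of 18, and that of genes often studied for tumour methylation had 6 of 43 (14.0%), with the telomerase gene TERT at 22 of 55, RASSF1 at 9 of 15 and the WNT antagonist SFRP2 at 7 of 10. None of the 22 TERT CpGs lay within 200 bp of the 5' end, where 18 were measured. The same held for RASSF1 and FAM50B, with 3 and 9 measured there. Numbered zinc finger genes had 15 of 390 (3.85%), below the share of all genes, and glutamate and GABA receptors 1 of 19 (5.26%), which was GRID1. No ribosomal protein gene did, 0 of 66, which allows a share of up to 4.55%. No olfactory receptor (0 of 7) or defensin (0 of 1) did, but few of them were measured. The median share of a gene's measured CpGs that were methylated was still 44.4% in these 7 olfactory receptors. In the ribosomal protein genes it was 0%.

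The capture libraries give an independent measure of the same CpGs. Enrichment here is the mean depth at the CpGs divided by the mean depth over all autosomes of that library. At the methylated promoter CpGs it was 100.4, 104.5 and 83.6 for MethylMagnet in HCT15, DU145 and PC3. It was 64.6, 58.8 and 61.3 for MethylCollector and 34.1, 43.7 and 31.9 for MethylCollector Ultra. MethylCap had 11.9, 13.1 and 14.0, and MethylMiner 2.50, 3.76 and 3.80. The values of the kits did not overlap. The means over lines were 96.2 ± 11.0 (SD, n = 3), 61.6 ± 2.9, 36.6 ± 6.3, 13.0 ± 1.1 and 3.35 ± 0.74 in the same order.

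Kits accounted for 99.03% of the spread of log2 enrichment (exact permutation test of kits within lines, 14400 relabellings, p = 6.9e-05, the smallest they can give). Without MethylMiner the share was 98.5% (exact permutation test, p = 0.0017, again the smallest). Lines accounted for 0.22% (exact permutation test of lines within kits, p = 0.37).

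Promoter CpGs unmethylated in all 3 lines lay far lower in 4 kits. The enrichment at the methylated CpGs was 31.7 to 35.6 times that at the unmethylated ones with MethylMagnet. The ratio was 54.9 to 70.0 with MethylCollector and 17.2 to 38.4 with its Ultra version, and MethylCap had 28.8 to 48.1. For MethylMiner the ratio was 1.14 in HCT15, 1.13 in DU145 and 0.90 in PC3, the one library with less depth at the methylated CpGs. The mean log2 ratio was 4.21 ± 2.19 (SD over 15 libraries) and positive in 14 of 15 (exact two-sided sign-flip test, p = 0.00012). It was 5.25 in the 12 libraries other than MethylMiner (exact test, p = 0.00049, the smallest they can give). Libraries of a line share its DNA, so these p-values are too small, as are those of every sign-flip test over libraries given below. Over 3 lines alone such a test could not go below 0.25.

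**Figure D3:**
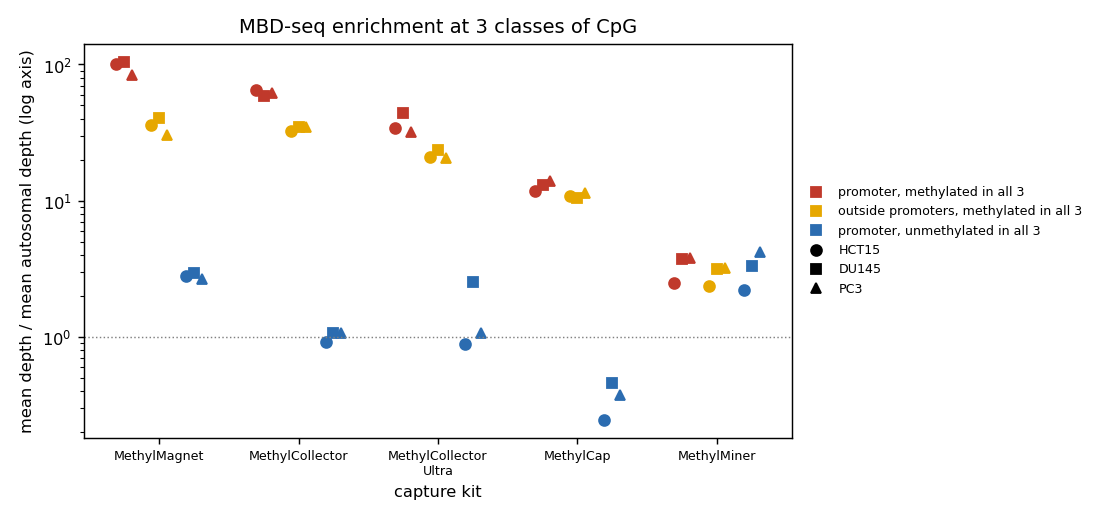
Enrichment (mean depth over mean autosomal depth, log axis) for each kit at promoter CpGs methylated in all 3 lines (red), CpGs methylated in all 3 outside promoters (yellow) and promoter CpGs unmethylated in all 3 (blue). Symbols are single libraries of HCT15 (circle), DU145 (square) and PC3 (triangle). Red lies between 83.6 and 104.5 for MethylMagnet and between 2.50 and 3.80 for MethylMiner, where blue reaches 4.20.

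The contrast was also seen over genes whose windows held both classes. The CpGs were pooled over these genes and not compared gene by gene. The 180 genes with 5 or more CpGs of each class held 1272 methylated and 3828 unmethylated CpGs. MethylCap enrichment was 12.7, 14.6 and 13.5 at the former in HCT15, DU145 and PC3, and 0.43, 0.66 and 0.58 at the latter. The enrichment at the methylated CpGs was more than 5 times that at the unmethylated ones in 11 of the 12 libraries other than MethylMiner. MethylMagnet in DU145, with 10040 fragments in all, had no fragment at the unmethylated CpGs and gave no ratio. The methylated CpGs had the sparser surroundings (median of 13 CpGs within 100 bp against 25). For MethylMiner the ratio was 1.16, 0.85 and 0.74.

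TSSK6 shows such a border. Its 16 unmethylated CpGs lay at positions -698 to -516 from the 5' end and reached at most 10.0%, whereas its 49 methylated CpGs lay at positions 270 to 1000 and were at least 91.4% methylated in every line. The remaining 3 measured CpGs, at -662, -580 and -510, belonged to neither class. At -510 methylation was 55.6%, 66.7% and 75.9% in HCT15, DU145 and PC3. No CpG was measured between -510 and 270, so the place of the border is not known. The mean depth at the methylated CpGs was 0.88, 0 and 5.18 fragments for MethylMagnet in HCT15, DU145 and PC3, and 5.31, 0 and 1.51 for MethylCollector. It was 2.80, 0 and 3.76 for MethylCollector Ultra and 4.31, 1.53 and 2.43 for MethylCap. At the 16 unmethylated CpGs no fragment was counted in any of these 12 libraries. The library labelled MethylMiner HCT15 had a mean depth of 3.00 there and of 2.27 at the methylated CpGs, while the other MethylMiner libraries had 0 at the unmethylated CpGs.

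**Figure D4:**
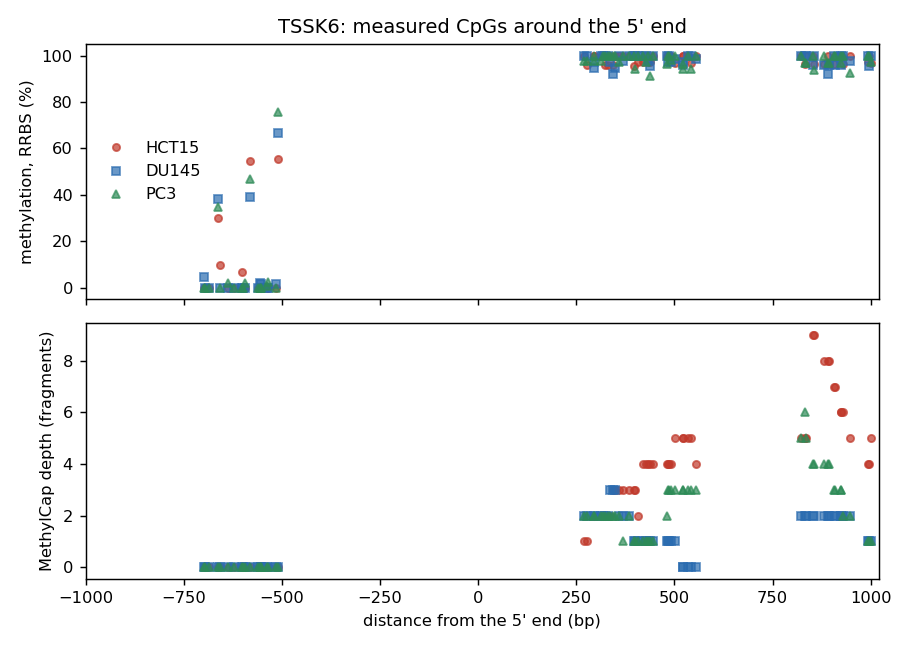
CpGs measured around the 5' end of TSSK6 by distance from it (bp, horizontal axis), with RRBS methylation (%) above and MethylCap depth (fragments) below. Points are CpGs, with HCT15 as circles, DU145 as squares and PC3 as triangles. MethylCap depth is 0 at the 16 unmethylated upstream CpGs and averages 4.31, 1.53 and 2.43 at the 49 methylated ones.

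Against the 291464 CpGs methylated in all 3 lines outside promoters, the promoter CpGs were more enriched in 15 of 15 libraries. The ratio was 2.73 ± 0.11 (SD, n = 3) with MethylMagnet and 1.82 ± 0.16 with MethylCollector. MethylCollector Ultra had 1.69 ± 0.16, while MethylCap and MethylMiner had 1.19 ± 0.08 and 1.15 ± 0.08. The mean log2 ratio was 0.70 ± 0.48 over 15 libraries (exact two-sided sign-flip test, p = 6.1e-05, the smallest it can give), and 0.83 in the 12 libraries other than MethylMiner (exact test, p = 0.00049). When only CpGs with 11 to 20 CpGs within 100 bp were compared, 5627 in promoters and 85888 outside, the mean log2 ratio was -0.06, with 5 of 15 libraries higher in promoters (exact test, p = 0.11). The comparison was added after seeing the data. Of these CpGs, 2348 in promoters and 22816 outside had 16 to 20. In every class from 11 to 15 up to 26 to 30 CpGs, the mean of each kit was higher outside promoters. At 16 to 20 CpGs it was 127.3 outside and 98.7 in promoters with MethylMagnet, and 17.5 and 14.9 with MethylCap. In the sparser classes and at 31 to 60 CpGs the kits went both ways. These differences by class were not tested.

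Enrichment was higher at CpGs in dense than in sparse surroundings, by kit to very different degrees. At CpGs with more than 14 CpGs within 100 bp (6517) it was 13.6, 16.1 and 16.0 times that at the others (6925) for MethylMagnet in HCT15, DU145 and PC3. The ratio was 4.28, 4.84 and 3.68 for MethylCollector and 2.54, 3.57 and 2.73 for MethylCollector Ultra. MethylCap had 1.22, 1.77 and 1.64, and MethylMiner 1.15, 1.39 and 1.59. The dense CpGs were higher in 15 of 15 libraries (mean log2 ratio 1.72 ± 1.31, exact two-sided sign-flip test, p = 6.1e-05). Without MethylMiner the mean was 2.04 (exact test, p = 0.00049). Kits accounted for 97.8% of the spread of the log2 ratio (exact permutation test, p = 6.9e-05) and for 97.7% without MethylMiner (p = 0.0017).

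By class of density, MethylMagnet enrichment went from 0.78 ± 0.70 (SD, n = 3) at 1 to 5 CpGs to 98.7 ± 8.2 at 16 to 20 and 307.2 ± 48.9 at 26 to 30. MethylCollector went from 1.45 ± 0.69 to 131.8 ± 2.9 over the same classes. MethylCap went from 5.27 ± 0.68 to 18.3 ± 3.3 at 21 to 25 CpGs, and MethylMiner from 2.46 ± 0.21 to 4.63 ± 1.28. The order of the kits therefore turned. At 1 to 5 CpGs MethylCap was highest in each line, and from 16 to 20 CpGs upwards MethylMagnet was. In the densest class, 31 to 60 CpGs (465 CpGs), the mean of every kit was below its highest. It was 238.9 ± 32.7 for MethylMagnet, 101.9 ± 23.1 for MethylCollector, 51.0 ± 19.8 with the Ultra version, 12.5 ± 5.4 for MethylCap and 3.06 ± 1.73 for MethylMiner, and these differences between classes were not tested. In that class MethylCap had 6.28 in HCT15 and 14.8 in DU145 and 16.3 in PC3.

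**Figure D5:**
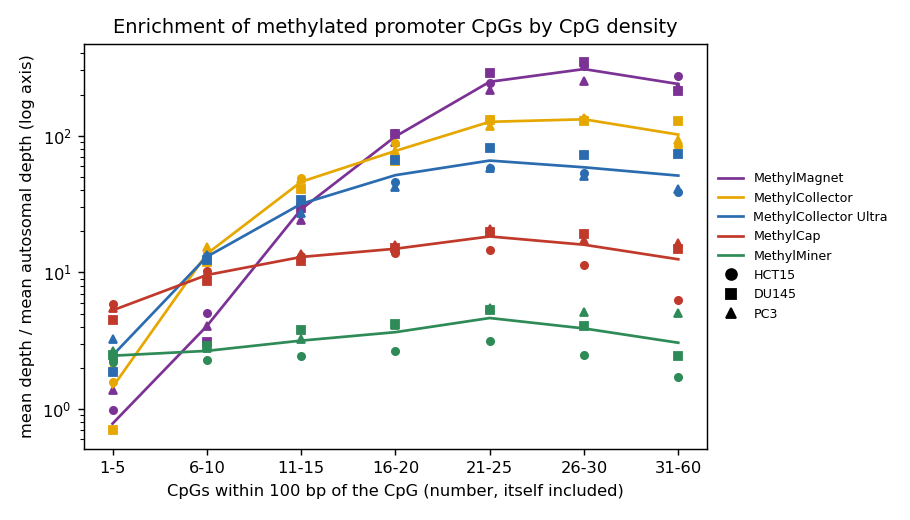
Enrichment of methylated promoter CpGs (log axis) by the number of CpGs within 100 bp (horizontal axis, itself included). Lines are kit means over 3 lines, and symbols are single libraries, with the value of 0 of MethylMagnet in DU145 at 1 to 5 CpGs not drawn. The mean of MethylMagnet goes from 0.78 to 307.2 at 26 to 30 CpGs and is 238.9 in the densest class, and that of MethylCap goes from 5.27 to 18.3 at 21 to 25 CpGs and is 12.5 in the densest class.

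For distance from the 5' end no difference passed the test. The 2937 methylated CpGs within 200 bp had a mean log2 ratio of 0.0014 ± 0.18 (SD over 15 libraries) to the 10505 farther away, with 6 of 15 libraries higher near the 5' end (exact two-sided sign-flip test, p = 0.98). Without MethylMiner the mean was 0.027 (exact test, p = 0.65). By kit the ratio was 1.22 ± 0.17 (SD, n = 3) for MethylMagnet and between 0.93 and 0.99 on average for the others. The sign and the call of this result changed with the RRBS coverage, the methylation threshold and the window, from -0.34 at a coverage of at least 50 to 0.19 with the starts of all transcripts.

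Not every methylated promoter CpG was captured. The share under at least 1 fragment was 23.1%, 5.56% and 36.6% for MethylMagnet in HCT15, DU145 and PC3. It was 48.2%, 8.74% and 24.0% for MethylCollector, and 61.0%, 7.58% and 52.3% with its Ultra version. MethylCap reached 83.2%, 43.3% and 49.3%, and MethylMiner 66.3%, 44.6% and 37.8%. These shares overlap between kits. Within each kit they followed the number of fragments, but not across kits, since MethylMiner in PC3 had 2092970 fragments and a share of 37.8% and MethylCollector in HCT15 265628 and 48.2%. Kits accounted for 39.7% of the spread (exact permutation test within lines, p = 0.041), but 38.8% at p = 0.057 without MethylMiner. Divided by the share of all autosomal CpGs covered in the same library, the value was 13.4 ± 2.7 (SD, n = 3) with MethylMagnet and 8.70 ± 1.07 with MethylCollector. MethylCollector Ultra had 6.30 ± 2.16, MethylCap 2.94 ± 0.61 and MethylMiner 1.78 ± 0.27. The value cannot exceed the inverse of the share of all CpGs covered, so its ceiling is low in deep libraries. In every kit it was lowest in the library with the largest such share, as in MethylCap HCT15 with 37.1% and 2.24. The order of the kits by this value is therefore not free of depth.

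Of the 877 genes, 860 had at least 1 methylated CpG under a MethylCap fragment in HCT15 (98.1%, 95% Wilson interval 96.9 to 98.8), and 105 under a MethylMagnet fragment in DU145 (12.0%, 9.99 to 14.3). Genes can share fragments, and the intervals cover counting error only. MethylMagnet in PC3 covered 38 of the 230 genes whose CpG density was at or below the lower quartile (10.5 CpGs within 100 bp) and 204 of the 219 above the upper quartile (20). MethylCap in HCT15 covered 224 of the former and 214 of the latter. A gene was covered in a median of 7 of the 12 libraries other than MethylMiner.

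In 20 genes at least 1 methylated CpG was under a fragment in all 12 libraries, which in shallow libraries was a small share of them, as in CIDEB with 6 of 47 in DU145 with MethylCollector Ultra. These genes had a median of 23.5 CpGs within 100 bp, against 14 over all 877, and include CIDEB and LTB4R, the forkhead gene FOXC2 (26 of 55 measured CpGs), the WNT receptor gene FZD9 (25 of 71) and SLC25A31, a mitochondrial carrier of the testis (14 of 14). Only ARHGEF3 (5 of 28) and CTNNB1 (5 of 5), the gene of beta-catenin, were covered in none of the 12. Their CpGs had a median of 6 CpGs within 100 bp. In CTNNB1 the annotated 5' end lies 4764 bp from the start of the canonical transcript, and in ARHGEF3 it lies 277380 bp away.

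TLX3 gives the depth of a strongly methylated window in every library. The mean depth over its 69 CpGs was 0.75, 0.71 and 6.94 fragments for MethylMagnet in HCT15, DU145 and PC3, and 2.30, 0 and 1.86 for MethylCollector. It was 3.10, 0.83 and 4.14 for MethylCollector Ultra, 4.97, 1.13 and 1.30 for MethylCap and 0.91, 0.62 and 0.97 for MethylMiner. The value of 0 came from a library of 29613 fragments. In ALOX12, with all 44 CpGs methylated, no fragment was counted in DU145 with MethylMagnet, MethylCollector or MethylCollector Ultra, and MethylCap had 2.34, 1.43 and 0.39. At the capitalised CpGs of the BCL2L11 sequence the MethylCap depth was 3.53, 0.74 and 1.74, and at those of TPTE it was 4.15, 2.00 and 0.

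Among genes with 10 or more methylated CpGs, the highest mean log2 MethylCap enrichment was found in SHANK1, a postsynaptic scaffold gene (5.90), ABHD16B (5.67), the somatostatin receptor gene SSTR4 (5.67) and CCDC166 (5.53), with 0.5 of the genome mean added to each value. ABHD16B had a MethylCap depth of 11.9, 2.66 and 4.03 fragments over 29 CpGs in HCT15, DU145 and PC3, and a MethylMagnet depth of 3.83, 0.62 and 12.2. In SHANK1 the 10 methylated CpGs, at positions -709 to -628 from the 5' end, stood beside 11 unmethylated ones.

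The lowest values were those of DLGAP2, a gene of the postsynaptic density (-0.37), PRDM14, a regulator of germ cells (-0.30), PCDHGA3 (0.12) and ADAM30, a testis metalloprotease (0.15). In DLGAP2 the 16 methylated CpGs were 96.9%, 92.1% and 96.7% methylated and had a median of 37 CpGs within 100 bp, yet the MethylCap depth was 0.38, 0 and 0 fragments. The MethylMagnet depth at the same CpGs was 1.38, 0.06 and 0.81, and that of MethylCollector 1.38, 0 and 0.19. In PRDM14 MethylCap had 0.45, 0 and 0 and MethylCollector 1.73, 0.18 and 1.64. In ADAM30 MethylCap had 1.40, 0 and 0, and MethylMagnet 0, 0 and 1.00. A depth of 0 over a single gene rests on few fragments, and the differences between kits at single genes were not tested.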

How the data were processed

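MBD-seq was done with 5 kits on 3 cell lines (15 libraries) and RRBS on each line (3 libraries). For MBD-seq, BOWTIE was run by the authors against NCBI build 37 (version not given in the sources used here). Pairs with a unique position within 400 bp were retained and duplicates merged, and the deposited signal is the unscaled fragment depth. The deposited RRBS tables give the counts of methylated and total reads, over both strands, for CpGs covered by at least 6 reads. Depth limits the precision: the MBD-seq libraries held 10040 to 7344098 fragments, and the RRBS counts had a median coverage of 31 to 46 at CpGs covered at least 20 times.

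CpGs were placed on GRCh37 and genes taken from GENCODE 44. Depth starts were read as counted from 0. Enrichment is the mean depth at CpGs over the mean autosomal depth. Kits were permuted within lines, lines within kits, and signs over libraries, all exactly; scripts were tested on simulated data. Libraries were grouped by the kit in their labels, with the line as replicate block. The CpGs, gene lists and tests were chosen with earlier results of these data known. Named genes are the 12 with the most methylated CpGs, the 8 with the most within 200 bp (SPAG6 tied with the last and was added afterwards), the 6 largest with all measured CpGs methylated (10 or more), 3 per list, and the 4 highest and 4 lowest by MethylCap. FOXC2, FZD9, SLC25A31, ARHGEF3 and CTNNB1 were named after their values were seen. Sequences are those of 5 genes, by the number of methylated CpGs in the stretch, and some items are not reported here. Alternatives were other coverages, thresholds, windows, 5' ends and left-out libraries. Chromosomes X and Y were not used here. Python 3.11.15, numpy 2.4.6, pandas 2.3.3, scipy 1.17.1 and matplotlib 3.10.9 were used.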

Additional observations from a re-analysis of the deposited data

Results flagged for a closer look

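Of 8 tests of whether a contrast differed between kits or between lines, 3 passed after Benjamini-Hochberg adjustment (exact permutation tests), all between kits. The contrast of methylated against unmethylated promoter CpGs differed between kits (exact permutation test, adjusted p = 0.0022), with ratios of 28.5 ± 10.7 (SD, n = 3) to 60.8 ± 8.1 in 4 kits and 1.06 ± 0.14 for MethylMiner. That of promoter CpGs against methylated CpGs outside promoters differed (exact, adjusted p = 0.0014), from 2.73 ± 0.11 for MethylMagnet to 1.15 ± 0.08 for MethylMiner. That of dense against sparse promoter CpGs differed (exact, adjusted p = 0.00056), from 15.3 ± 1.4 for MethylMagnet to 1.38 ± 0.22 for MethylMiner. Near against far from the 5' end did not pass between kits (exact, adjusted p = 0.076). Without MethylMiner the first 3 contrasts still differed between the other 4 kits (exact, adjusted p = 0.046, 0.014 and 0.014), and that with unmethylated promoter CpGs also differed between lines (exact, adjusted p = 0.046 without MethylMiner and 0.084 with it). The groups of 3 libraries were too small for a test of outlying libraries.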

How the results depend on the processing

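The kit and line effects on enrichment, the contrast with unmethylated promoter CpGs, the dense to sparse ratio and its kit effect stayed on the same side of 0.05, with the same direction, under all alternatives run for them, the replicate block left out included (kit effect on enrichment 99.03%, kit effect on the dense to sparse ratio 97.8%). The number of CpGs was 22306 at a coverage of at least 10, 2583 at 50, 6947 in a window of 500 bp, 25311 in one of 2000 bp and 52823 with the 5' ends of all transcripts. The number of genes was 1451, 146, 417, 1893 and 3398 in the same order, and 1499 with 3 or more CpGs and 302 with 10 or more. With the start of the canonical transcript, added after seeing the data, there were 13184 CpGs and 846 genes. The kit effect on the share of CpGs covered, 39.7%, missed the threshold of the exact permutation test at a coverage of 50 (33.3%, p = 0.077), a methylation of 90% (37.4%, p = 0.054), a window of 500 bp (34.1%, p = 0.081), without MethylMiner (38.8%) and with no replicate block (39.7%, p = 0.25), and ranged from 44.3% to 56.1% with a line left out (p from 0.033 to 0.40). The log2 ratio near against far from the 5' end, 0.0014, passed the threshold in both directions. It was -0.34 at a coverage of 50, -0.089 at a methylation of 70% and -0.12 in a window of 500 bp, but 0.13 at a coverage of 10, 0.16 in a window of 2000 bp and 0.19 with all transcripts. It was -0.015 and -0.011 without HCT15 or DU145 and 0.03 without PC3. The ratio to CpGs outside promoters turned to -0.056 at 11 to 20 CpGs within 100 bp. The cause was not tested. The contrast pooled over the 180 genes had no such value because 1 library had no fragment at their unmethylated CpGs.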

Other observations

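By chromosome, the share of measured promoter CpGs methylated in all 3 lines ran from 3.14% on chromosome 15 to 6.41% on chromosome 21, of which part was not measured in PC3. The chromosome 21 value is 146 of 2277 CpGs, with 50 in CLIC6 and 26 in TPTE. Chromosome 19 held the most of the 877 genes, 91 of 982 measured (9.27%, against 7.54% over all chromosomes), followed by chromosome 1 with 77 of 1218 (6.32%) and chromosome 2 with 76 of 830 (9.16%). As a share of measured genes, chromosome 18 was highest with 19 of 192 (9.90%). Leaving out 963 CpGs with a tied lowest value, the lowest of the 3 lines was PC3 at 36.5% of the methylated promoter CpGs, HCT15 at 34.8% and DU145 at 28.7%. Of the 13442 CpGs, 758 (5.64%) lay in the windows of 2 or more genes.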
